A study of Mus musculus with 2 samples.

Results

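Cxcl9 and Cxcl10, 2 neighbouring chemokine genes among the 31053 genes in the deposited matrices, were followed cell by cell through mouse liver. Both were taken by gene symbol from every cell class of both libraries, and both were detected in each library. The pIVCL library came from the liver of C57BL/6 mice whose inferior vena cava had been partially ligated 6 weeks earlier, at 8 to 10 weeks of age, a narrowing that congests the liver. The Control library came from C57BL/6 liver that its title calls healthy, and its sample record also gives 8 to 10 weeks of age. The growth protocol attached to the Control sample describes the ligation too, so its group was taken from its genotype label and title. Each group held 1 library of mixed hepatocytes and non-parenchymal cells. The sources used here do not say how many animals a library held or whether Control mice had a sham operation. With 1 library per group, differences compare these 2 libraries, not the conditions, and there was no test.

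CXCL9 and CXCL10 are secreted ligands of CXCR3, a receptor carried mainly by activated T cells and natural killer cells. Transcription of both genes is known to be induced by interferon gamma, and Cxcl10 is also known to answer type I interferon and NF-kB. In liver, sinusoidal endothelial cells, stellate cells and macrophages are among the known sources. The series title places Cxcl9 in LSEC (liver sinusoidal endothelial cells, which line the sinusoids and scavenge from blood) and ties it to macrophage numbers.

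The genes lie in 1 cluster on mouse chromosome 5, both on the minus strand of GRCm38: Cxcl9 (ENSMUSG00000029417) at chr5:92321347-92328079 and Cxcl10 (ENSMUSG00000034855) at chr5:92346638-92348889. Their start sites are 20810 bases apart. The Cxcl10 gene lies inside the span of Art3, which runs on the opposite strand, and the sources used here do not say how strand entered the counting, and without strand, reads of Cxcl10 and Art3 could not be told apart. The 250 bases before each start site (RefSeq, GRCm38.p6) are shown because the genes are described here by whether they appear together, and these windows hold different sets of motifs. Capitals mark matches to an interferon-stimulated response element (ISRE, GAAANNGAAA) and to an NF-kB motif (GGGNNNNNCC), searched on both strands, where matches may overlap.
Cxcl9, chr5:92328080-92328329, minus strand: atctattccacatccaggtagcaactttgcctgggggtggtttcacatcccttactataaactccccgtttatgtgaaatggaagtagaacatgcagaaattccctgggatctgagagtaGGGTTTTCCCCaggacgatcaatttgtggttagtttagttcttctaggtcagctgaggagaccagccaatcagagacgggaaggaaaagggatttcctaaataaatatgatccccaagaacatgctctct
Cxcl10, chr5:92348890-92349139, minus strand: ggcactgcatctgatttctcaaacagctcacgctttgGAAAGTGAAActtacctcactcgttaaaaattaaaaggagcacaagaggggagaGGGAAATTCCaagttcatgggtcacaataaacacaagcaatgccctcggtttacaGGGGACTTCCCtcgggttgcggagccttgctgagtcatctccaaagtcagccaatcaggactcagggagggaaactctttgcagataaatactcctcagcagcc
The Cxcl10 window holds the ISRE letters at -213 to -204 from the start site and NF-kB letters starting at -159, -104 and -103. The Cxcl9 window holds NF-kB letters starting at -130 and -129 and no ISRE letters. Neither window holds the letters TTCNNNGAA of a gamma-activated site. Of 32851 mouse windows of this length, 2.98% hold the ISRE letters, 45.8% the NF-kB letters and 7.02% the gamma-activated letters. The longest run that both windows share is CAGCCAATCAG, which starts at -68 in Cxcl9 and at -57 in Cxcl10 and occurs in 0.399% of the windows. A match is a description of letters and shows no binding. A missing match does not show that a responsive site is absent, since only these fixed letters were searched.

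The pIVCL library held 7042 barcodes and 38154000 UMIs (unique molecular identifiers, each a counted RNA molecule), and the Control library 3574 barcodes and 24637681 UMIs. After filtering, 5443 pIVCL cells with a median of 2005 UMIs and 2718 Control cells with a median of 5263.5 remained, and 9 barcode sequences occurred in both libraries. Cells fell into 26 clusters and 15 classes, named from markers with the suffix -like. Clusters were made without the 2 genes. The doublet caller marked 3 pIVCL and 8 Control cells, too few to have worked, so barcodes of 2 cells remain among the cells. Because depth differed, levels are given as CPM (the gene's UMIs summed over a class, on the CPM scale of all UMIs of that class), and detection was read after each cell had been thinned at random to 1000 UMIs. Intervals are 95% and cover counting error only. B cell-like cells, which should lack both genes, set the background of detection after thinning. In pIVCL, 3 of 938 of them (0.320%) held Cxcl9 and 8 (0.853%) held Cxcl10, at a median depth of 1897.5 UMIs before thinning. In Control, 0 of 132 held either gene at a median of 3292.5 UMIs, which allows a share of up to 2.27% when 3 cells are taken as the limit of a count of 0.

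LSEC-like cells carried the highest level of both genes in both libraries. Cxcl9 stood at 1213 CPM in pIVCL LSEC-like cells (1164 to 1263, 2335 UMIs in 573 cells) and at 283 CPM in those of Control (269.6 to 297, 1691 UMIs in 1059 cells). Cxcl10 stood at 1649 CPM (1592 to 1708) in pIVCL and at 492 CPM (474 to 510.2) in Control. Vascular endothelial-like cells followed for Cxcl10 in both libraries, at 607 CPM in pIVCL and 337 in Control, and hepatic stellate-like cells came next, at 442 in pIVCL and 209.8 in Control. For Cxcl9 the same order held in pIVCL, with 378 CPM in vascular endothelial-like and 261 in stellate-like cells. In Control the second place belonged to monocyte/macrophage-like cells at 120.3 CPM, whose interval (86.3 to 163) overlapped that of vascular endothelial-like cells (80.5 CPM, 65.5 to 98.0).

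The remaining classes mostly held less, though some intervals met those of the classes above. In pIVCL, Cxcl9 levels ran from 133 CPM in mesothelial-like cells through 123.5 in pDC-like (plasmacytoid dendritic), 71.1 in cholangiocyte-like, 69.3 in monocyte/macrophage-like, 63.0 in Kupffer-like and 42.5 in cDC1-like (type 1 conventional dendritic) cells to 18.2 in hepatocyte-like cells. Neighbours in that stretch had overlapping intervals, except cDC1-like above hepatocyte-like cells. In Control, Kupffer-like cells held 56.1 CPM of Cxcl9, stellate-like 36.5, cDC1-like 24.2 and hepatocyte-like 10.5, and the intervals of each neighbouring pair overlapped, as did those of Kupffer-like and vascular endothelial-like cells. Control pDC-like and cholangiocyte-like cells had 0 UMIs of Cxcl9, which allows up to 18.3 and 14.5 CPM at the upper 95% bound. Cxcl10 in pIVCL ran from 315 CPM in pDC-like through 270 in cholangiocyte-like, 223 in monocyte/macrophage-like and 217 in mesothelial-like cells, all overlapping, and the pDC-like interval (234 to 414) also overlapped that of stellate-like cells. Below them stood 48.4 in T cell-like and 39.5 in Kupffer-like cells. In Control, Cxcl10 stood at 90.2 CPM in Kupffer-like cells and at 17.6 CPM or less in every class below them. NK/ILC1-like and B cell-like cells stayed at or under 14.6 CPM for both genes in both libraries, and erythroid-like cells had 0 UMIs of both.

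**Figure D1:**
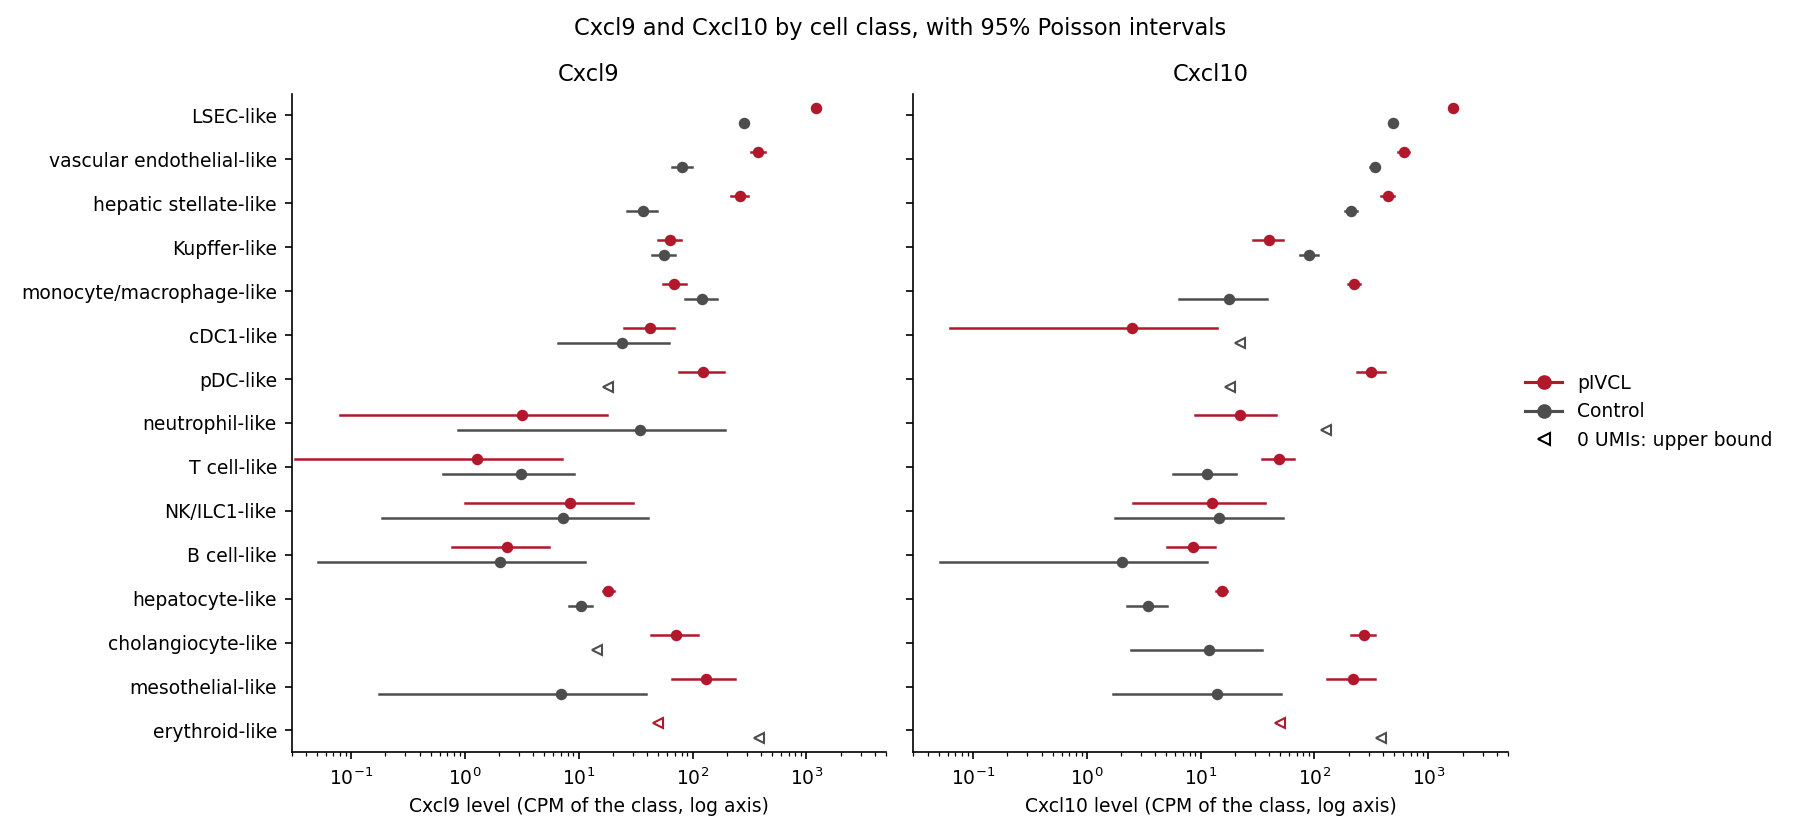
Level of Cxcl9 (left) and Cxcl10 (right) in each cell class on a log axis of CPM, pIVCL in red above Control in grey, with 95% Poisson intervals. LSEC-like cells are at the right-hand end in both libraries, at 1213 and 283 CPM of Cxcl9 and 1649 and 492 CPM of Cxcl10, and open triangles give the upper bound where a class had 0 UMIs.

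The LSEC-like class was made of different clusters in the 2 libraries, so it was compared by cluster. Cluster 5 held 426 pIVCL and 11 Control cells, cluster 3 held 8 pIVCL and 762 Control cells, and cluster 6, of shallow cells, held 139 pIVCL and 286 Control cells with medians of 848 and 928 UMIs. Cluster 5 was led by Esm1, Lyve1, Cxcl9 and Cxcl10, with none of the LSEC markers and 1 vascular marker (Selp) among its leading 10 genes, although each of the 10 LSEC markers was detected in at least 5% of its cells. Cluster 3 was led by the sinusoidal genes Dnase1l3 and Clec4g. In the main cluster of each library, Cxcl9 stood at 1292 CPM (1239 to 1346) in pIVCL cluster 5 and at 291 CPM (277 to 305) in Control cluster 3. Cxcl10 stood at 1777 CPM (1715 to 1841) in the pIVCL cluster and at 506 CPM (487 to 525) in the Control cluster. The ratio was 4.44 (4.17 to 4.74) for Cxcl9 and 3.51 (3.34 to 3.70) for Cxcl10.

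Within a single cluster the pIVCL cells were also higher in Cxcl9. In cluster 6, Cxcl9 had 376 CPM in pIVCL and 108 CPM in Control, a ratio of 3.49 (2.24 to 5.50). For Cxcl10 the same cells had 178 CPM in pIVCL and 138 CPM in Control, and the interval of the ratio, 1.28 (0.760 to 2.13), covered equality. In cluster 5 the ratio was 2.48 (1.72 to 3.72) for Cxcl9 and 1.48 (1.16 to 1.91) for Cxcl10, on 11 Control cells. In cluster 3 it was 2.32 (1.40 to 3.64) for Cxcl9 and 2.67 (1.89 to 3.68) for Cxcl10, on 8 pIVCL cells. After thinning, the ratio of mean UMIs in cluster 5 was 1.87 for Cxcl9 and 0.829, the other way round, for Cxcl10, on 10 Control cells. The thinned ratios of clusters 3 and 6 kept their direction for both genes.

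Both the share of positive cells and the UMIs per positive cell were higher in the main pIVCL cluster than in the main Control cluster. After thinning, 58.4% of pIVCL cluster 5 cells and 15.0% of Control cluster 3 cells held Cxcl9, a ratio of 3.89, and the mean per positive cell was 2.57 UMIs in pIVCL and 1.76 in Control, a ratio of 1.45. Cxcl10 was held by 58.0% of the pIVCL and 24.8% of the Control cells, a ratio of 2.34, at 3.15 UMIs per positive cell in pIVCL and 2.10 in Control, a ratio of 1.502. The share of positive cells thus moved more than the UMIs per positive cell for both genes, and more for Cxcl9 than for Cxcl10. A positive cell holds at least 1 UMI, so at such low counts an equal rise in every cell can give this order too. These ratios therefore cannot tell more expressing cells from more molecules in each cell.

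Cxcl9 and Cxcl10 were found in the same LSEC-like cells more often than the product of their single shares. Of 483 thinned pIVCL cells, 165 held both genes (34.2%, 29.9% to 38.6%), 98 held Cxcl9 without Cxcl10, 90 held Cxcl10 without Cxcl9 and 130 held neither. The product of the single shares was 28.7%, so the ratio was 1.19. Of 894 thinned Control cells, 42 held both (4.70%, 3.41% to 6.30%), 84 Cxcl9 without Cxcl10, 160 Cxcl10 without Cxcl9 and 608 neither, against a product of 3.18% and a ratio of 1.48. Without thinning, 49.2% of pIVCL and 21.2% of Control cells held both. In both libraries the interval for LSEC-like cells with both genes lay above the share that the B cell-like cells of that library allow, 0.320% in pIVCL and 2.27% in Control.

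Read from 1 gene to the other, Cxcl10 was present in 62.7% of Cxcl9-positive pIVCL cells (56.6% to 68.6%) and in 40.9% of Cxcl9-negative ones (34.3% to 47.7%). In Control it was present in 33.3% of Cxcl9-positive (25.2% to 42.3%) and 20.8% of Cxcl9-negative cells (18.0% to 23.9%). The intervals did not overlap in either library. Over 20 thinning draws the difference averaged 26.2 percentage points in pIVCL (17.5 to 33.8) and 14.3 in Control (4.84 to 23.1). Spearman's rho between the thinned counts was 0.32 across pIVCL cells and 0.12 across Control cells, a description over cells that share a library. In the main cluster of each library the order was the same, with 65.0% of Cxcl9-positive (58.7% to 71.0%) and 48.0% of Cxcl9-negative cells (40.4% to 55.7%) in pIVCL cluster 5, and 35.1% (26.4% to 44.6%) and 22.98% (19.8% to 26.4%) in Control cluster 3. The Control intervals of cluster 3 overlapped by a hair, at 26.4%. The shallow cluster 6 of Control went the other way on few cells, with 0 holding both genes, 9 Cxcl9 without Cxcl10, 7 Cxcl10 without Cxcl9 and 110 neither. In cluster 6 of pIVCL these numbers were 3, 11, 4 and 36.

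**Figure D2:**
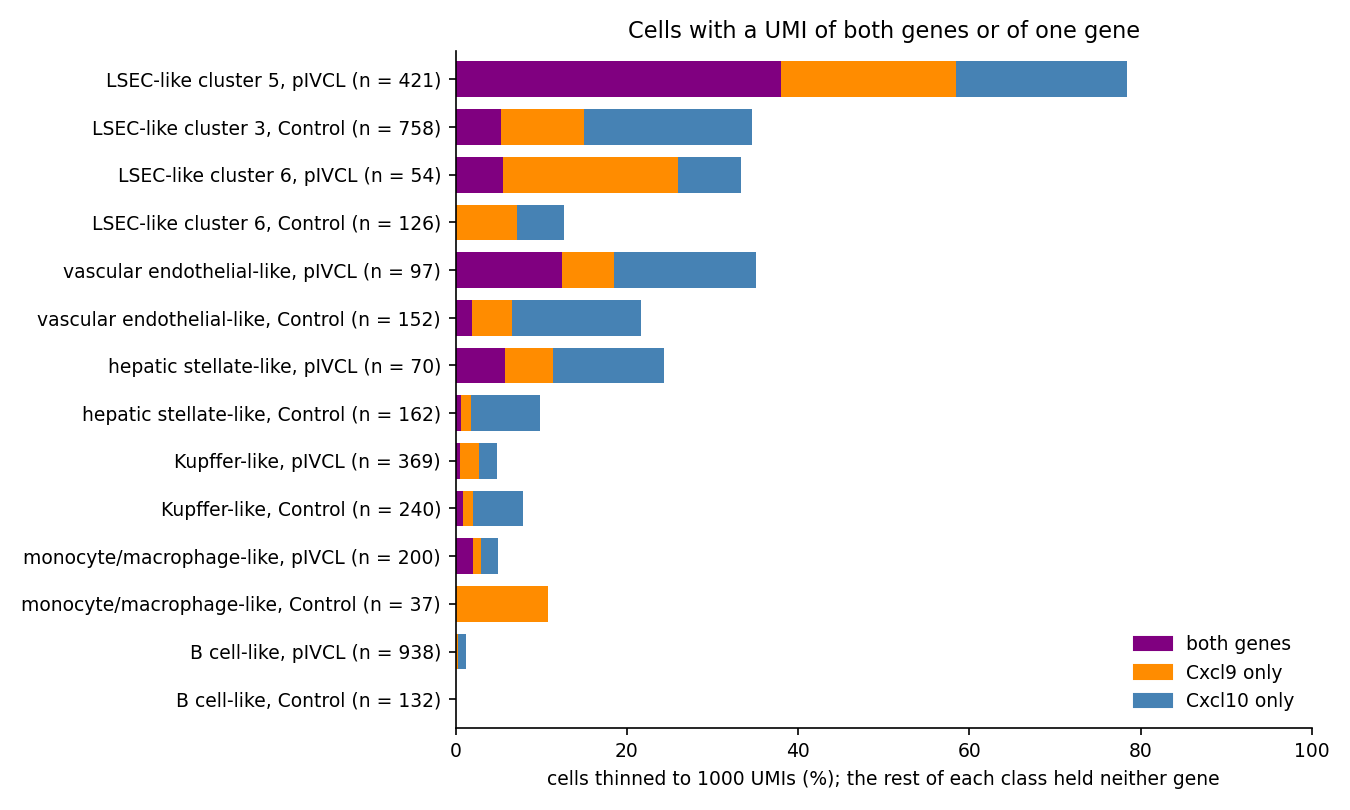
Percent of thinned cells with a UMI of both genes, of Cxcl9 without Cxcl10 and of Cxcl10 without Cxcl9, for LSEC-like clusters and for other classes, each pIVCL bar above its Control bar. Cluster 5 of pIVCL has 38.0% of cells with both genes, cluster 3 of Control 5.28%, and B cell-like cells 0.

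**Figure D3:**
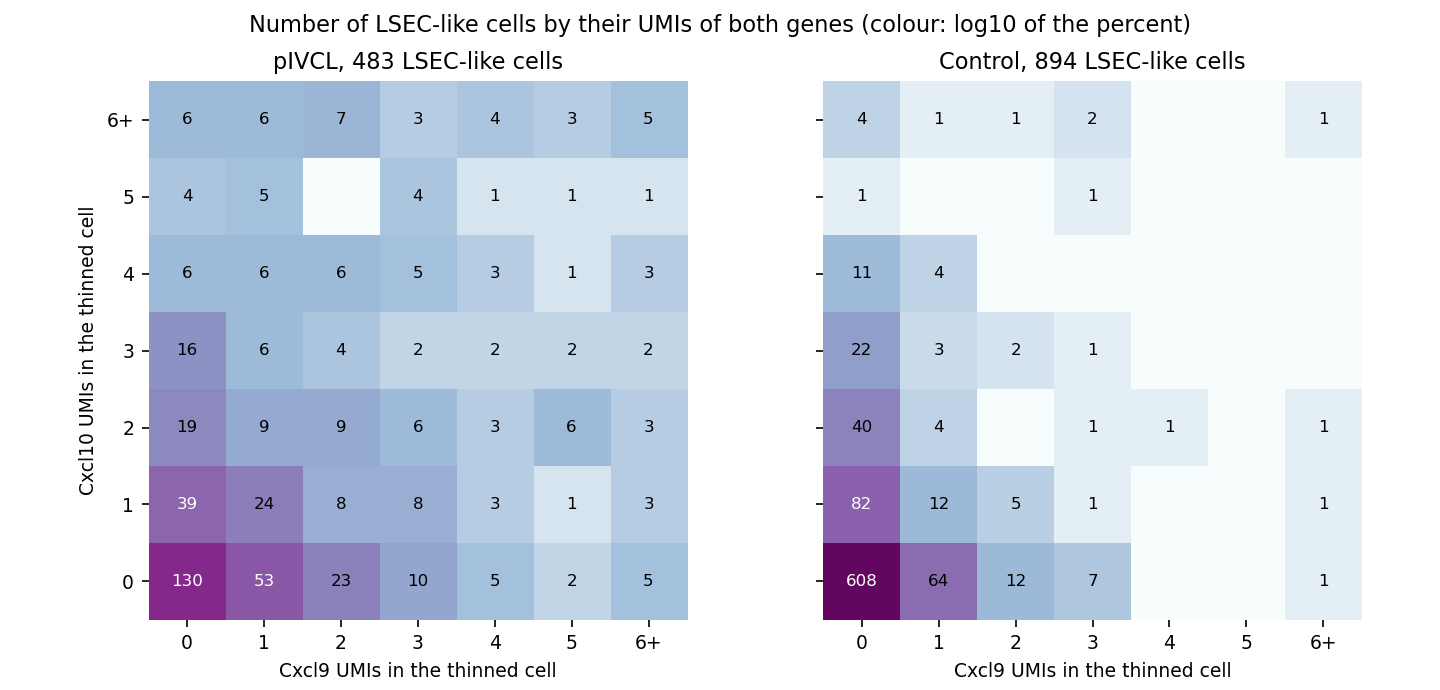
Number of thinned LSEC-like cells for each pair of Cxcl9 (x axis) and Cxcl10 (y axis) UMI counts, pIVCL left and Control right, with 6+ for 6 or more and colour as the log10 of the percent of cells. The corner with neither gene holds 130 of 483 pIVCL cells and 608 of 894 Control cells, and the pIVCL cells spread over the whole field.

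Both genes were spread over LSEC-like cells more unevenly than counting alone gives. In thinned pIVCL cells the variance was 2.62 times the mean for Cxcl9 and 4.00 times for Cxcl10, where counting alone gives 1. In Control the factors were 4.73 for Cxcl9 and 3.67 for Cxcl10. Without the Control cell highest in the pair they were 2.43 and 2.74, so that 1 cell set much of the Control Cxcl9 value. Cells with no Cxcl9 made up 45.5% of the pIVCL cells, where a Poisson count of the same mean gives 25.4%, and 85.9% of the Control cells, where it gives 78.2%. The 49 pIVCL and 90 Control cells with the most UMIs of a gene held 43.0% of thinned Cxcl9 in pIVCL and 83.6% in Control, and 46.3% of Cxcl10 in pIVCL and 71.5% in Control, a share that also rises where the mean is lower. At least 5 thinned Cxcl9 UMIs were found in 38 pIVCL and 4 Control cells, and at least 5 of Cxcl10 in 50 pIVCL and 11 Control cells.

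Single cells weighed on the Control values. The highest Control cell held 169 Cxcl9 and 186 Cxcl10 UMIs among its 8585, which was 4.14% of its RNA, 9.99% of the Cxcl9 and 6.32% of the Cxcl10 of all Control LSEC-like cells. Without it, Control LSEC-like cells had 255 CPM of Cxcl9 and 462 CPM of Cxcl10. The next Control cell held 33 and 48 UMIs. The highest pIVCL cell held 6 Cxcl9 and 99 Cxcl10 UMIs, 0.257% and 3.12% of the class. The cells highest in both genes and the cells highest in Cxcl10 with little Cxcl9 thus both occurred.

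Among cells rich in the 2 genes, the mixture varied from cell to cell. In the 199 pIVCL LSEC-like cells with at least 10 UMIs of the pair, Cxcl9 made up a median of 41.2% (10th to 90th percentile 8.81% to 75.6%), with 124 cells between 25% and 75%, 23 below 10% and 13 above 90%. In the 159 such Control cells the median was 18.2% (0% to 75.2%), with 57 cells between, 58 below 10% and 8 above 90%. The variance of this share was 6.88 times the binomial value in pIVCL and 12.2 times in Control. Cells with nearly pure Cxcl10 thus made up 58 of 159 rich Control cells and 23 of 199 rich pIVCL cells, in libraries of different depth.

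Summed over a class, the Cxcl9 share of the pair's UMIs was 42.4% (41.1% to 43.7%) in pIVCL LSEC-like cells and 36.5% (35.1% to 37.9%) in those of Control. Capture differs between genes, so the share is no molar ratio, but it can be set side by side across classes. It was 38.4% in pIVCL and 19.3% in Control vascular endothelial-like cells, and 37.2% in pIVCL and 14.8% in Control stellate-like cells. Kupffer-like cells had 61.5% (52.2% to 70.1%) in pIVCL and 38.3% (31.7% to 45.4%) in Control. Over all barcodes, endothelial, stellate and Kupffer-like cells thus leaned further to Cxcl9 in the pIVCL library. Monocyte/macrophage-like cells (23.7% in pIVCL and 87.2% in Control) and hepatocyte-like cells (54.4% in pIVCL and 75.2% in Control) leaned further to it in Control. Without barcodes of 2 or more LSEC marker UMIs, the Kupffer-like intervals overlapped, at 64.0% (53.8% to 73.4%) in pIVCL and 59.1% (48.5% to 69.2%) in Control. Stellate-like cells then kept 1 Cxcl9 UMI in each library. Monocyte/macrophage-like cells kept their order, at 31.3% (23.6% to 39.9%) in pIVCL and 88.9% (51.75% to 99.7%) in Control. The Control value rests on 8 Cxcl9 UMIs and 1 Cxcl10 UMI in 16 cells. Hepatocyte-like cells kept theirs too, at 52.9% (48.5% to 57.3%) in pIVCL and 90.6% (80.7% to 96.5%) in Control.

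**Figure D4:**
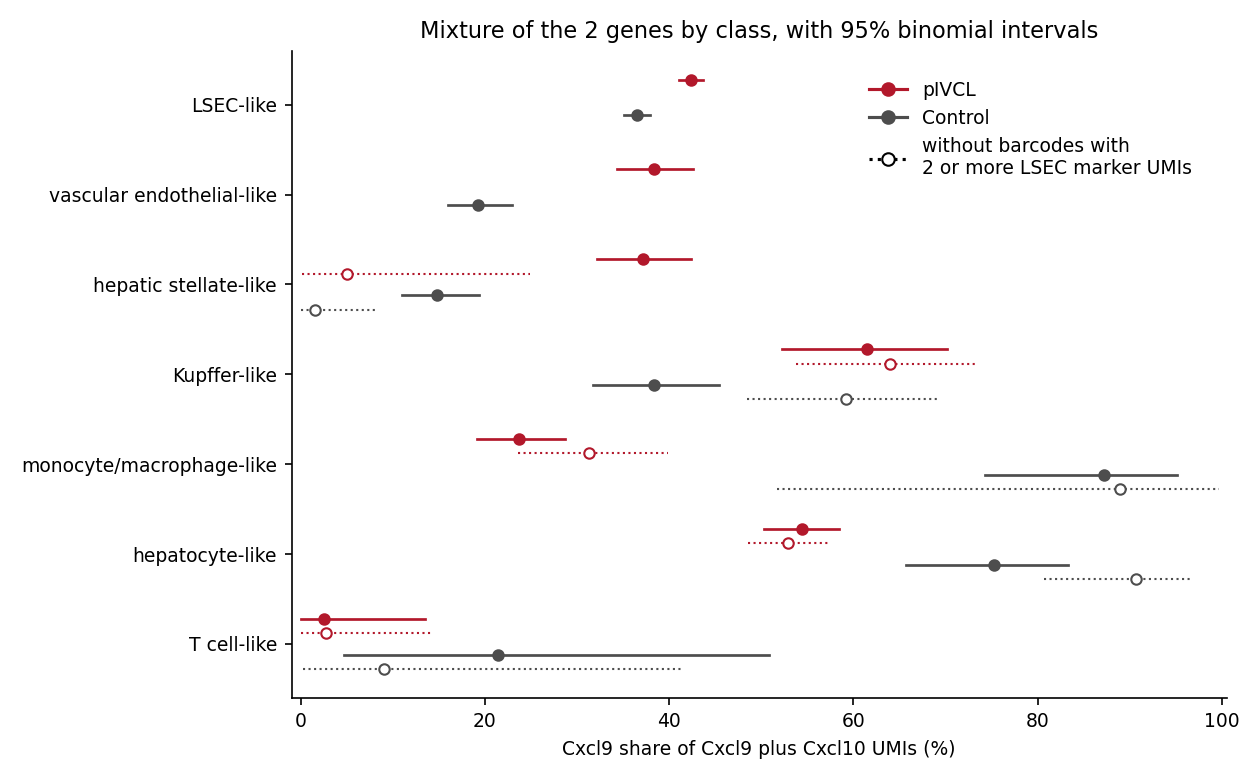
Cxcl9 as a percent of Cxcl9 plus Cxcl10 UMIs by class, pIVCL in red above Control in grey, with 95% exact binomial intervals. Open circles leave out barcodes with 2 or more LSEC marker UMIs, which takes stellate-like cells to 5.00% in pIVCL and 1.52% in Control.

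The class named vascular endothelial-like carried the pair at a lower level than LSEC-like cells, and it held LSEC marker RNA too. LSEC markers summed to 6950 CPM in its pIVCL and 8274 CPM in its Control barcodes with at least 5 UMIs of the pair. In its other barcodes they summed to 4272 CPM in pIVCL and 7198 CPM in Control. Leaving out LSEC marker barcodes was not tried in this class. Cxcl9 stood at 378 CPM in pIVCL (329 to 432) and 80.5 in Control, a ratio of 4.69 (3.69 to 6.01), and Cxcl10 at 607 CPM in pIVCL and 337 in Control, a ratio of 1.80 (1.55 to 2.08). Of 97 thinned pIVCL cells, 12 held both genes, 6 Cxcl9 without Cxcl10, 16 Cxcl10 without Cxcl9 and 63 neither. Cxcl10 was in 66.7% of the Cxcl9-positive cells (41.0% to 86.7%) and 20.3% of the others (12.0% to 30.8%). Of 152 Control cells, 3 held both, 7 and 23 held Cxcl9 or Cxcl10 without the other and 119 held neither, and the shares of 30% and 16.2% had overlapping intervals. Different clusters held most of the class, with 76 of 97 pIVCL cells in cluster 16 and 119 of 152 Control cells in cluster 13. Cluster 13 scored almost as high on LSEC markers (2.13) as on vascular markers (2.15). With both genes in the clustering, the like cluster, of 23 pIVCL and 121 Control cells, was named LSEC. With finer Leiden clustering, the clusters named vascular endothelial held 41 and 18 pIVCL cells. Another cluster there, of 35 pIVCL and 0 Control cells, scored 3.08 on T cell and 2.35 on LSEC markers. It was led by Selp, Il2rb and Lyve1. The other T cell clusters held 254 and 73 pIVCL cells there, beside 254 and 74 in the first clustering. The vascular endothelial-like class went from 97 pIVCL cells to those 41 and 18. By these counts most of the 35 cells came from the vascular endothelial-like class, though single cells were not followed. Without cells holding 2 or more leukocyte UMIs, the Cxcl10 ratio was 0.927, the other way round.

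Stellate-like cells, the pericytes of the sinusoid, gave 261 CPM of Cxcl9 (219 to 309) in pIVCL and 36.5 (26.5 to 49.0) in Control, and 442 CPM of Cxcl10 (386 to 503) in pIVCL and 209.8 (185 to 237) in Control. Most of it sat in a few barcodes. The 14 pIVCL and 16 Control barcodes with at least 5 UMIs of the pair held 91.9% of the pIVCL and 87.9% of the Control UMIs of both genes. In those barcodes the summed LSEC markers were at 5617 CPM in pIVCL and 7315 CPM in Control, against 917 and 1347 CPM in the other stellate-like barcodes, and at 12293 and 22453 CPM in the like barcodes of the LSEC-like class. Among the 77 pIVCL and 114 Control stellate-like cells with fewer than 2 LSEC marker UMIs, Cxcl9 came to 1 UMI in each library and no cell held both genes. These cells were shallower, with medians of 2031 UMIs in pIVCL and 3053.5 in Control, against 4555 and 5636 in all stellate-like cells. The limit thus also removed deeper cells, in which either gene is more readily detected. Cxcl10 remained at 73.8 CPM (44.4 to 115) in pIVCL and 132 CPM (102 to 168) in Control, a ratio of 0.560. The Cxcl10 ratio of all stellate-like cells, 2.11 (1.75 to 2.53), thus turned its direction, and the Cxcl9 ratio of 7.16 (5.05 to 10.3) could not be read without those barcodes. How many of them hold 2 cells was not tested.

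The 2 macrophage classes differed in their levels. Kupffer-like cells, the resident macrophages, had 63.0 CPM of Cxcl9 in pIVCL (49.5 to 79.0) and 56.1 in Control (44.4 to 69.9), and the ratio of 1.12 (0.807 to 1.56) covered equality. Their Cxcl10 stood at 39.5 CPM in pIVCL and 90.2 in Control, a ratio of 0.438 (0.306 to 0.616), which became 1.43 when classes were set per cell from markers. After thinning, 2 of 369 pIVCL and 2 of 240 Control Kupffer-like cells held both genes. A few barcodes carried these levels too, since 4 pIVCL and 14 Control barcodes with at least 5 UMIs held 50% and 76.2% of the pair's UMIs. LSEC markers in those barcodes summed to 241 CPM in pIVCL, against 365 in the rest, and to 2014 CPM in Control, against 648 in the rest. Without barcodes with 2 or more LSEC marker UMIs, Cxcl9 stood at 67.3 CPM in pIVCL and 95.3 in Control, which turned the Cxcl9 direction.

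Monocyte/macrophage-like cells had 69.3 CPM of Cxcl9 in pIVCL (54.6 to 86.8) and 120.3 in Control, and 223 CPM of Cxcl10 in pIVCL (196 to 253) and 17.6 in Control (6.46 to 38.3), on 217 pIVCL and 38 Control cells. Of the 200 thinned pIVCL cells, 4 held both genes and 190 neither. The 6 pIVCL barcodes with at least 5 UMIs held 92.5% of the class's UMIs of the pair and 6200 CPM of LSEC markers, against 538 CPM in the rest. Among the 165 pIVCL cells with fewer than 2 LSEC marker UMIs, Cxcl10 was at 126 CPM (101.2 to 154), Cxcl9 at 57.3 CPM and 1 cell held both. In Control, all 41 Cxcl9 UMIs fell in 5 of the 38 cells. Among the 16 Control cells with fewer than 2 LSEC marker UMIs, Cxcl9 was at 64.4 CPM (27.8 to 127), on 8 UMIs.

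In several of the other classes a few barcodes carried most of the pair, with or without LSEC marker RNA. All 51 Cxcl10 UMIs of pIVCL pDC-like cells fell in 5 of 37 cells, and the 4 barcodes with at least 5 UMIs held 6531 CPM of LSEC markers, against 450.4 CPM in the rest. Without barcodes of 2 or more LSEC marker UMIs, 1 Cxcl10 UMI and 0 Cxcl9 UMIs remained. Among cholangiocyte-like cells of pIVCL, 4 of 56 barcodes held 97.8% of the UMIs, at 3748 CPM of LSEC markers and 108 CPM in the rest, and 10 Cxcl10 UMIs and 0 Cxcl9 UMIs remained without those with LSEC marker RNA. T cell-like cells of pIVCL held 38 Cxcl10 UMIs and 1 Cxcl9 UMI, and 36 and 1 of these remained without the LSEC marker barcodes. The 2 T cell-like barcodes with at least 5 UMIs held 64.1% of them and 0 CPM of LSEC markers. The cDC1-like cells leaned the other way, with 17 Cxcl9 UMIs and 1 Cxcl10 UMI in pIVCL and 4 and 0 in Control. Hepatocyte-like cells held 18.2 CPM of Cxcl9 and 15.3 CPM of Cxcl10 in pIVCL and 10.5 and 3.46 CPM in Control. The Cxcl9 ratio, 1.73 (1.35 to 2.25), turned its direction with a 10% mitochondrial limit (0.932) and without the 5% of cells with the most UMIs (0.902). Their pIVCL cells lay mostly in clusters 1 and 4 and their Control cells in clusters 11 and 1, and cluster 1 was shallow, with medians of 1111 and 977 UMIs. After thinning, 4 of 1422 pIVCL hepatocyte-like cells held both genes, and 0 of 379 in Control, which allows up to 0.792% by the same limit of 3 cells.

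Companions are genes whose mean thinned UMIs were at least 2-fold higher or lower in LSEC-like cells with both genes than in cells with neither, in both libraries. LSEC-like cells were the class with at least 30 cells in each state in both libraries. In the first draw, 182 of 3589 tested genes (5.07%) were called higher and 102 (2.84%) lower in pIVCL, and 116 of 3673 (3.16%) higher and 352 (9.58%) lower in Control. In both libraries together, 16 of 3116 (0.513%) were higher and 13 (0.417%) lower. The 16 are 11.5% of the genes called higher in pIVCL and 16.5% of those in Control that were tested in both. The thinning draw decided many of them. With the log2 ratio averaged over 20 draws, which was chosen after seeing the data, 65 of 3631 genes (1.79%) were higher and 12 (0.33%) lower in pIVCL, 13 of 3656 (0.356%) higher and 6 (0.164%) lower in Control, and 11 of 3210 (0.343%) higher and 1 (0.0312%) lower in both. Of these 11, 5 were among the 16, namely Vcam1, Rsad2, Socs1, Serpina3f and Sbno2.

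The 5 genes called in the first draw and over 20 draws had different known roles. Vcam1 encodes an adhesion molecule for leukocytes, and in the first draw it was detected in 48.5% of pIVCL cells with both genes and 30% with neither, and in 16.7% and 7.07% of the Control cells. Its 20-draw log2 ratio was 1.36 in pIVCL (lowest to highest draw 0.933 to 1.82) and 1.74 in Control (0.994 to 2.45). Rsad2 encodes the antiviral protein viperin, and its ratios were 1.35 in pIVCL and 1.67 in Control. It was detected in 15.2% of pIVCL cells with both genes and 6.15% with neither, and in 21.4% and 9.87% of the Control cells. Socs1, a feedback inhibitor of cytokine signalling, stood at 1.71 in pIVCL (lowest to highest draw 1.11 to 2.73) and 1.32 in Control (-0.0349 to 2.18). Sbno2, a co-regulator known from interleukin 10 signalling, was at 1.46 in pIVCL and 1.06 in Control, and Serpina3f, a serine protease inhibitor, at 1.23 and 1.15.

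The other 6 of the 11 were absent from the first draw's 16. They were Iigp1, an interferon-inducible GTPase (1.63 in pIVCL and 1.18 in Control), Apold1, an immediate-early gene of endothelium (1.44 and 1.09), Pim1, a kinase (1.08 and 1.08), Icam1, an adhesion molecule for leukocytes (1.05 and 1.10), Nfkbiz, a regulator of NF-kB (1.92 and 1.02), and Irf8, an interferon regulatory factor (1.00 and 1.29). Vtn, a plasma protein made by hepatocytes, was the gene called lower, at -1.20 in pIVCL and -1.30 in Control. Just outside stood the immediate-early gene Fos, at 1.78 in pIVCL and 0.997 in Control, and just inside Irf8. Several genes of the first draw fell back in Control, with Junb at 1.63 in pIVCL and 0.881 in Control, the gap junction gene Gja1 at 1.48 and 0.824, the small GTPase Rhob at 1.48 and 0.703, and the cell cycle inhibitor Cdkn1a at 1.88 and 0.489. Il1a, encoding interleukin 1 alpha, had 0.921 in pIVCL and 0.95 in Control, and Hs3st3b1, a heparan sulfate sulfotransferase, 0.539 and 0.626.

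Of the 13 genes lower in the first draw, 0 were called over 20 draws. The 5 lowest were Agpat3, an acyltransferase (-1.77 in pIVCL and -2.57 in Control in the first draw), Ndufb2, a complex I subunit (-2.04 and -1.59), Kcnq1ot1, a long noncoding RNA (-1.56 and -2.67), Sdc4, a syndecan (-1.27 and -1.89), and Abcd3, a peroxisomal transporter (-1.22 and -2.16). Over 20 draws they lay at -0.690 and -0.635, -0.973 and -0.242, -1.32 and 0.0381, -0.915 and 0.144, and -0.617 and -0.564. In 4 of the 5 the first draw had 0 UMIs in the 42 Control cells with both genes, so their Control ratios rest on the 0.02 UMIs added.

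**Figure D5:**
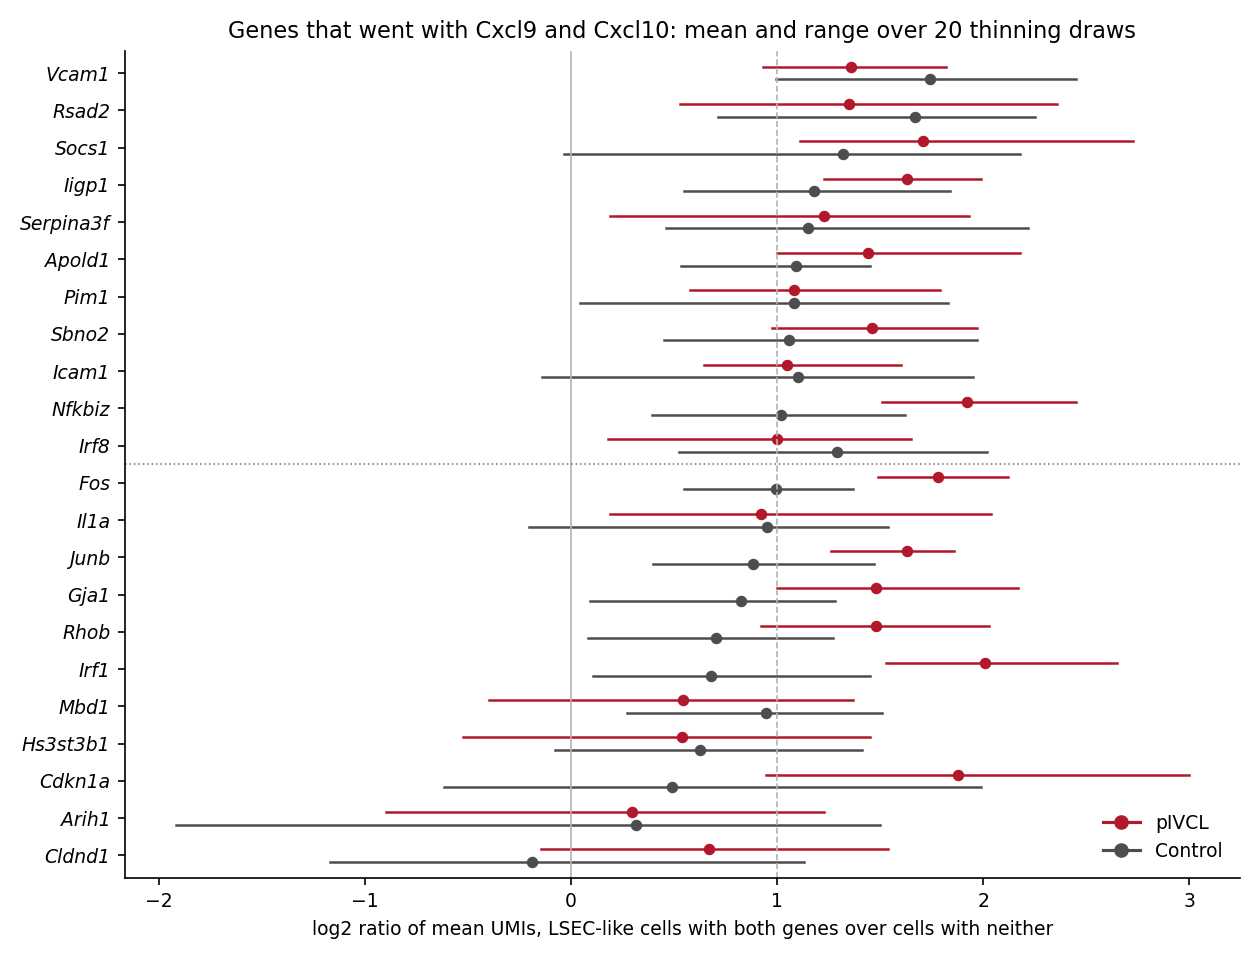
Log2 ratio of mean thinned UMIs, LSEC-like cells with both genes over cells with neither, as mean (points) and range (lines) over 20 thinning draws, pIVCL above Control. The 11 genes above the dotted line averaged at least 1 (dashed line) in both libraries, Vcam1 at 1.36 in pIVCL and 1.74 in Control among them, and the genes under it came from the first draw alone.

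RefSeq windows were found for 8 of the 11 companions. All 8 held the NF-kB letters, 5 held the gamma-activated letters (Apold1, Icam1, Irf8, Sbno2 and Serpina3f) and 2 held the ISRE letters (Rsad2 and Socs1), beside 48.7%, 8.13% and 3.46% of all genes with a window. Of the 16 first-draw companions 14 had a window, of which 9 held NF-kB, 3 gamma-activated and 2 ISRE letters.

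By gene list, immediate-early genes (rapidly induced, such as the transcription factors Fos and Egr1) had the highest median in pIVCL. In the first draw 13 of 15 tested members were called higher and 0 lower there, with a median log2 ratio of 1.45 beside 0.0555 over all genes, and over 20 draws 14 of 15. Of all genes tested in pIVCL, 5.07% were higher and 2.84% lower in the first draw, and 1.79% and 0.33% over 20 draws. Egr1 had 1.58 UMIs per cell with both genes and 0.354 per cell with neither (2.10), and Atf3 (2.07), Zfp36 (1.67) and Btg2 (1.64) followed. In Control 3 of 14 were higher and 1 lower, with a median of 0.659, and over 20 draws 0 of 14 were called. Of all genes tested in Control, 3.16% were higher and 9.58% lower in the first draw, and 0.356% and 0.164% over 20 draws. Klf6 was at 1.73 and Btg2 at -1.17 there. Without the shallow cluster 6, 9 of 15 pIVCL and 1 of 14 Control members were called higher. The pIVCL cells with neither gene included 36 of 130 from cluster 6 and had a median of 2820.5 UMIs before thinning, against 3587 in cells with both, and its part in the ratios was not tested.

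Of NF-kB feedback and adhesion genes, 5 of 9 in pIVCL (median 1.02) and 3 of 6 in Control (median 0.908) were higher in the first draw and 0 lower, beside 5.07% of all tested genes higher in pIVCL and 3.16% in Control. Over 20 draws 6 of 11 in pIVCL and 3 of 6 in Control were higher, beside 1.79% and 0.356% of all genes. Without the shallow cluster 6, 3 of 10 in pIVCL (median 0.666) and 2 of 6 in Control were higher. Nfkbiz led in pIVCL at 2.22, with Tnfaip3, a deubiquitinase that limits NF-kB, at 1.60 and the inhibitor Nfkbia at 1.26. In Control, Icam1 (1.54), Vcam1 (1.27) and Csf1, the macrophage growth factor (1.11), led. Interferon-gamma sensing genes gave 4 of 11 higher in pIVCL, led by Irf1 (2.20), Socs1 (1.52) and Socs3, another inhibitor of cytokine signalling (1.501). In Control they gave 2 of 10 higher (Socs1 at 1.57 and Irf1 at 1.06) and 1 lower, Ifngr1 at -1.02. The Ifngr1 value rests on 1 UMI in the 42 Control cells with both genes. Over 20 draws 4 of 11 were higher in pIVCL and 2 of 12 in Control, and 0 were lower in either. Without cluster 6, 3 of 11 were higher in pIVCL and 1 of 11 in Control.

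Interferon targets were mixed, and their counts stand beside the same shares of all tested genes. Of the interferon-gamma targets 4 of 10 were higher and 1 lower in pIVCL, with Iigp1 at 1.40, the GTPase Irgm1 at 1.22 and Lap3, a peptidase, at -1.09, and 0 of 9 were called in Control, where Irgm1 had -0.793 and Gbp7 0.849. Over 20 draws 1 of 10 in pIVCL and 1 of 9 in Control were higher. Type I interferon-stimulated genes gave 3 of 14 higher in pIVCL, with Rsad2 at 2.07, Oasl2 at 1.55 and Ifit2 at 1.41, and 6 of 14 in Control, with Rsad2 at 1.89, Ifit3 at 1.80 and Isg15 at 1.63. Over 20 draws 2 of 14 in pIVCL and 2 of 12 in Control were higher, and without cluster 6 the first-draw counts were 5 of 14 in pIVCL and 6 of 15 in Control. Of MHC class I genes, 0 of 9 in pIVCL and 0 of 10 in Control were called.

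Of the cell identity lists, 0 to 2 members each were called, beside 5.07% of all tested genes higher and 2.84% lower in pIVCL and 3.16% higher and 9.58% lower in Control. These counts are too small to set apart from those shares. Of 14 sinusoidal identity genes 1 was higher in pIVCL (the growth factor Bmp2 at 1.15) and 0 in Control. Among pericentral genes, 1 of 5 was higher in pIVCL (Thbd at 1.41), and 2 of 7 were lower in Control, namely Wnt2 at -1.06 and Cdh13 at -1.04. Among periportal genes, 1 of 8 was higher in pIVCL (Efnb2 at 1.37) and 0 of 7 were called in Control. Over 20 draws 0 members of these 3 lists were called in either library. Of heat shock genes, 0 of 8 in pIVCL were called and 1 of 6 was lower in Control, and of activated and angiogenic genes 1 of 8 was lower in pIVCL and 1 of 2 higher in Control. The MHC class II member Cd74 was lower in pIVCL at -1.64. At most 2 members of the CXCR3 axis, other chemokine and stellate lists were tested in a library, with 0 called, and no cell cycle gene was tested. Leukocyte transcripts were lower in pIVCL cells with both genes, 6 of 7 in the first draw and 4 of 8 over 20 draws. Macrophage transcripts led them, Lyz2 at -2.17 and C1qc at -1.91, and the list summed to 0.588 UMIs per cell with both genes and 1.92 with neither. In Control its sums were 0.405 and 0.237. Hepatocyte transcripts summed to 11.5 UMIs per pIVCL cell with both genes and 18.6 with neither, and to 8.38 and 11.4 in Control. The part of this other-cell RNA in the ratios was not tested.

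The receptor of the pair was highest in T cell-like and NK/ILC1-like cells. Cxcr3 stood at 150.3 CPM in pIVCL (124 to 180) and 336 CPM in Control (301 to 375) T cell-like cells, at 154 and 278 in NK/ILC1-like cells, at 67.9 and 129 in pDC-like cells and at 77.5 and 103 in cDC1-like cells. LSEC-like cells had 2 Cxcr3 UMIs in pIVCL and 1 in Control. Cxcr3 was also counted among barcodes of classes that held the chemokines. It stood at 44.0 CPM in pIVCL (28.4 to 64.9) and 9.67 CPM in Control vascular endothelial-like barcodes. Monocyte/macrophage-like barcodes had 8.21 CPM in pIVCL and 46.9 CPM in Control (26.8 to 76.2). Ifng, the inducing cytokine, was at 121 CPM in pIVCL and 188 in Control T cell-like cells and at 195 and 139 in NK/ILC1-like cells. Vascular endothelial-like cells had 42.2 CPM of Ifng in pIVCL (27.0 to 62.8) and 1 UMI in Control. Finer clustering set apart 35 pIVCL and 0 Control cells that scored highest on T cell markers and next on LSEC markers. By the cell counts given above, most of them came from the vascular endothelial-like class. The Cxcr3 and Ifng of that class could therefore not be assigned to endothelial cells. The part of such cells, and of RNA from other cells, in these Cxcr3 and Ifng values was not tested. Dpp4, a peptidase that trims both chemokines, was at 401 CPM in pIVCL and 593 in Control LSEC-like cells. Pf4, another CXCR3 ligand, was a Kupffer-like transcript at 448 CPM in pIVCL and 118 in Control.

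Across 20 class levels (13 classes with at least 50 cells in a library), the levels of the pair correlated with each other at Pearson's r = 0.900 on the log2(CPM + 20) scale. Most like Cxcl9 were Lyve1, a hyaluronan receptor of sinusoidal and lymphatic endothelium (0.957), Exoc3l4 (0.940), the scavenger receptor Cd36 (0.931), Oit3 (0.910) and Spef1 (0.910). Most like Cxcl10 were Hspg2, encoding perlecan (0.952), Lyve1 (0.944), Spef1 (0.934), Mgat4b (0.932) and Col4a1, a basement membrane collagen (0.932). The points share libraries and depth. LSEC-like cells were not highest in every one of these genes, since Cd36 stood at 689 CPM in Control vascular endothelial-like cells and 535 CPM in Control LSEC-like cells, and Col4a1 at 853 CPM in Control stellate-like cells and 586 CPM in Control LSEC-like cells.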

How the data were processed

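Single-cell RNA-seq of mouse liver was deposited by the authors as gene by barcode matrices of UMI counts, 1 library per group. Cell Ranger 3.0.2 and mm10 are named in the submitters' processing notes, and the barcodes were already filtered in the deposited files. The label's target was 12000 cells, and the files held 7042 pIVCL and 3574 Control barcodes. Barcodes under 500 UMIs or 200 genes, or with more than 25% mitochondrial UMIs, were left out, which kept 5443 pIVCL and 2718 Control cells. Scrublet (expected rate 6%) called 0.0551% of pIVCL and 0.293% of Control cells and so did not work. Leiden clustering (scanpy 1.11.5, resolution 1, 20 neighbours, 30 components, 2000 variable genes, no integration of the libraries) ran on both libraries together without Cxcl9 and Cxcl10. Clusters were named from 23 marker classes.

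Levels are summed UMIs scaled to CPM with exact Poisson intervals, and shares have Clopper-Pearson intervals, all at 95% and for counting error only, and a share of 0 is given with the limit of 3 cells. Detection used cells thinned to 1000 UMIs. Companion ratios added 0.02 UMIs, took genes found in at least 5% of cells and called 2-fold differences. The scripts for co-detection and companions were tested on simulated data, where some unchanged genes were also called 2-fold in a single draw, more often in Control, which had few cells with both genes. No p-value was computed, because each group held 1 library. The genes and lists were chosen with earlier results of these data known. The text names the 10 highest and 5 lowest companions of the first thinning draw, the 5 genes most like each chemokine and up to 4 leading members of each list. The 20-draw companions were added after the data were seen. Class likeness used log2(CPM + 20). Alternatives changed the classes, filters, thinning, threshold, added UMIs and gene filter. Those that left out LSEC marker barcodes, the highest Control cell or cluster 6, and the mean over 20 draws, were chosen after seeing the data.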

Additional observations from a re-analysis of the deposited data

How the results depend on the processing

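The excess of Cxcl10 in Cxcl9-positive LSEC-like cells kept its direction in 15 of 15 alternatives in both libraries (lowest 15.8 percentage points in pIVCL and 10.2 in Control). It was 42.4 points in pIVCL and 30.7 in Control without thinning, and 30.6 in pIVCL with 2 UMIs required. The LSEC-like Cxcl9 share stayed between 41.5% and 42.7% in pIVCL and between 35.1% and 37.9% in Control in 10 of 10. Cells with both genes depended on depth. They were 18.2% of pIVCL and 1.98% of Control at 500 UMIs, 52.3% and 11.3% at 2000, 17.8% and 1.23% with 2 UMIs required, 49.2% and 21.2% unthinned, and 6.38% of Control with another draw. LSEC-like Cxcl9 in pIVCL was 1327 CPM with classes set per cell, 1267 with a 10% mitochondrial limit, 1321 without cells holding leukocyte UMIs and 1282 without cluster 6. In Control, Cxcl9 was 267.1 with both genes in the clustering, 311 without leukocyte UMIs and 255 without the highest cell. LSEC-like Cxcl10 in pIVCL was 1748 with both genes in the clustering, 1818 with classes set per cell, 1855 without leukocyte UMIs and 1770 without cluster 6, and in Control 462 without the highest cell and 512 without cluster 6. Higher companions numbered 10 with both genes in the clustering, 38 without leukocyte UMIs, 25 with 0.005 and 1 with 0.1 UMIs added, 42 with a 1% filter, 46 with no filter, 28 unthinned and 9 without cluster 6. Lower ones numbered 6 with classes per cell, 26 without leukocyte UMIs, 2 at 2000 UMIs, 26 with 0.005 and 0 with 0.1 added, 71 with a 1% filter, 73 with none, 187 unthinned and 1 over 20 draws. These ratios of pIVCL over Control changed direction: Kupffer-like Cxcl10 1.43 (classes per cell), hepatocyte-like Cxcl9 0.932 (10% mitochondrial limit) and 0.902 (top 5% of cells out), vascular Cxcl10 0.927 (leukocyte UMIs out), and stellate Cxcl10 0.560 and Kupffer-like Cxcl9 0.706 (LSEC marker barcodes out). Control log2 ratios that changed sign were Cdkn1a -0.0115, Ndufb2 0.145 and Sdc4 0.681 at 2000 UMIs, Agpat3 0.268, Kcnq1ot1 0.578 and Abcd3 0.0480 with another draw, Kcnq1ot1 0.0857 unthinned, and Kcnq1ot1 0.0381 and Sdc4 0.144 over 20 draws. The cause of these changes was not tested. Thinning to 500 UMIs left too few cells with both genes for companions. No paired analysis was possible because each group held 1 library.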
